A study of Mus musculus with 2 samples.

Results

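Transcripts of sterol and fatty acid synthesis were examined in the jejunum, the middle small intestine, of mice. The genes were taken by name: of 38 genes of cholesterol synthesis, its SREBP control, sterol handling and fatty acid synthesis, 35 had at least 1 probe set whose single platform symbol was theirs, out of 18193 genes with such a probe set on the array. These 35 genes were read by 79 probe sets. Signals of Acat2, Soat1 and Soat2 were not analysed here. 1 array carried RNA of wild-type mice and 1 array RNA of mice labelled XBP1 knock-out (KO below), each pooled from 3 animals. The labels give neither the strain and age of the mice nor the cells in which Xbp1 was deleted or the promoter used for that. RNA came from intestinal scrapings, so all cell types of the mucosa were read together, and fewer cells of a type cannot be told apart from less RNA per cell. With 1 array a genotype, no difference below has a replicate check or a p-value, and precision is limited by the number of arrays.

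Cells make cholesterol from acetyl-CoA by way of mevalonate, isoprenoid diphosphates, squalene and lanosterol. The genes of this route are switched on by SREBP2 and those of fatty acid synthesis mostly by SREBP1, transcription factors that are made as membrane proteins of the endoplasmic reticulum. When sterol runs low, the escort protein SCAP carries them to the Golgi to be cut and released, and when sterol is plentiful the INSIG proteins hold the complex back. In the small intestine, absorptive enterocytes also take up dietary sterol and fatty acids, while cells of the crypt divide and need membrane lipid of their own.

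Values below are signals in array units after both arrays were brought to the same 75th percentile, and log2 ratios are KO minus wild-type. Signals at or below a floor of 68.1 units were set to it, and a gene is called measured when its probe set exceeded the floor on at least 1 array. A gene is represented by its brightest probe set. Levels of different probe sets are not compared. 52.7% of probe sets exceeded the floor in wild-type and 47.3% in KO RNA. Where 3412 genes had several well-lit probe sets, the log2 ratios within a gene had an SD of 0.30, called the probe set spread below. It contains no difference between animals and none that all probe sets of an array share, such as labelling or hybridisation. Xbp1 stood at 8143 and 6782, a log2 ratio of -0.26, and the remaining 3 probe sets gave -0.15, 0.06 and -0.24. The deleted part of the gene is not given in the labels, so these probe sets check neither label, and each direction below rests on the labels.

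The KO pool had higher signals for malic enzyme and some desaturases of fatty acid synthesis and lower signals for several late enzymes of cholesterol synthesis. Scd2, Me1 and Fads2 were at least 2-fold higher, Fads2 on 1 of 3 probe sets, and Srebf2 was the 1 member at least 2-fold lower. Of 34 measured members, 3 (8.82%) were thus at least 2-fold higher, where 2.25% of all 12826 measured genes were, and 1 (2.94%) was at least 2-fold lower, where 5.08% of all genes were. The 288 genes higher and 652 lower behind these shares became 382 and 530 with the authors' scaling and 360 and 509 with quantile normalization. Spikes are control RNAs usually added in the same amount to each sample, before labelling or before hybridisation. With labelling spikes made equal these counts were 711 and 321, and with hybridisation spikes made equal 2641 and 126, so that more genes were higher than lower. The background also depends on the floor: 8.57% of members and 6.85% of all genes were at least 2-fold higher with the floor at the 25th percentile, and 8.57% and 9.55% with a floor of 1 unit, so the members' excess was small in the first and absent in the second. At 1.5-fold, 5 members (14.7%) were higher beside 7.84% of all genes. These were Scd2, Me1, Fads2, Fads1 and Idi1. At the same threshold 6 members (17.6%) were lower beside 16.3% of all genes, a share close to that background. They were Srebf2, Msmo1, Dhcr7, Tm7sf2, Cyp51 and Stard4. The median log2 ratio was -0.11 over all measured genes and -0.17 over the measured members, with groups on both sides. The median was -0.35 for 17 sterol synthesis enzymes and 0.46 for 10 fatty acid genes, a difference of -0.81 between the medians.

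**Figure D1:**
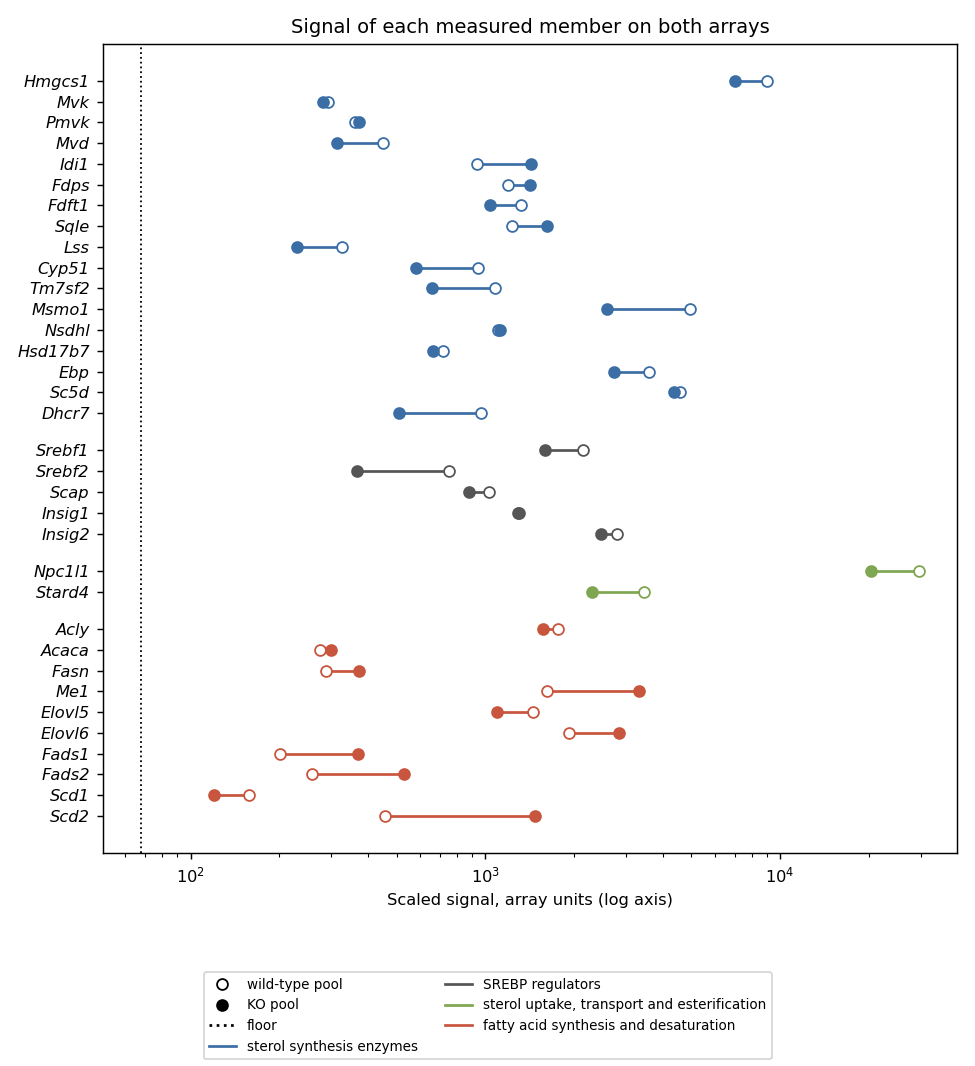
Signals of the 34 measured members in array units on a log axis, 1 gene a row, with the wild-type pool as open and the KO pool as filled circles and the floor of 68.1 dotted. The filled circle lies to the right for Scd2, Me1, Fads1 and Fads2 (red) and to the left for Msmo1, Dhcr7, Cyp51 and Tm7sf2 (blue) and for Srebf2 (grey).

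Promoter windows are shown for 5 members named for their place in the sterol route or for their ratio. They are Hmgcs1 at the entry of the route, Idi1 with the highest and Msmo1 with the lowest log2 ratio among sterol enzymes, and Me1 and Fads2, fatty acid genes at least 2-fold higher with a window in the table. The sequences come from RefSeq, assembly GRCm38.p6, which held windows for 30 of the 38 genes, from 250 bases before to 50 bases after the transcription start. Printed are the 220 bases from 200 before to 20 after the start, 5' to 3' on the gene's strand, with capitals marking matches to CCAAT, the site of NF-Y, and to TCACNCCAC, a form of the sterol regulatory element that SREBP binds, on either strand. They lie at chr13:119690151-119690370 (plus strand), chr13:8885406-8885625 (plus strand), chr8:64733559-64733778 (minus strand), chr9:86695895-86696114 (minus strand) and chr19:10101484-10101703 (minus strand).
Hmgcs1: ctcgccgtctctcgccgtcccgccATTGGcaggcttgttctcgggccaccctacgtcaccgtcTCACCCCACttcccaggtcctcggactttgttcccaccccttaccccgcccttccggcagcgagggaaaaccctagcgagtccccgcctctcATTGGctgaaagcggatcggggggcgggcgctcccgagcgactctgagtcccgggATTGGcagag
Idi1: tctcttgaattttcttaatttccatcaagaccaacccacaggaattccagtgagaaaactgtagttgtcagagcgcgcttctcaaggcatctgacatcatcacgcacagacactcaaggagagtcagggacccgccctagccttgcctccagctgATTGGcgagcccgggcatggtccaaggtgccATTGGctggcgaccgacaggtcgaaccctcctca
Msmo1: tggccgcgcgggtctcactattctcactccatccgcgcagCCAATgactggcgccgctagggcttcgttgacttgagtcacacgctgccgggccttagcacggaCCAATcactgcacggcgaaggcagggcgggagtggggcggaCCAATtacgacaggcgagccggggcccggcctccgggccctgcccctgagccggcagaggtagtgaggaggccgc
Me1: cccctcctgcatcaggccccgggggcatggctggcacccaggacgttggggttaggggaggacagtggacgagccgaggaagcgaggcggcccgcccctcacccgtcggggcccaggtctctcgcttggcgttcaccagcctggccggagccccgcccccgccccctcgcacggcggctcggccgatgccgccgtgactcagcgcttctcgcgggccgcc
Fads2: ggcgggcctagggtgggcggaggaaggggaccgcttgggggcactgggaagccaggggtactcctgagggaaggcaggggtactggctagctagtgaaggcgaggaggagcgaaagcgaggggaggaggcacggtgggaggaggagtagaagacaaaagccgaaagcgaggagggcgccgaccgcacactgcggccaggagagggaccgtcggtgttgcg

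The printed Hmgcs1 stretch holds the only TCACNCCAC match among the members, at position -137 from the start on the gene's strand, and CCAAT matches on the opposite strand at -176, -45 and 11, with a further one at -237 outside it. The Idi1 window holds CCAAT at -45 and -14 on the opposite strand, and the Msmo1 window at -160, -96 and -55 on its own strand. No match to either motif lies in the printed Me1 and Fads2 windows. Me1 has a further start site in the table, whose window holds CCAAT at -208 on the opposite strand. A gene is counted here when any of its 300-base windows holds the motif on either strand. Acat2 and Soat1 have a window and enter these counts, though not the signals. CCAAT was present for 14 of 15 sterol synthesis enzymes with a window (93.3%), all but Acat2, 5 of 8 fatty acid genes (62.5%), 4 of 5 SREBP regulators (80%) and 41.1% of all 27025 genes of the table. TCACNCCAC was present for 1 of those 15 sterol enzymes, 0 of the 8 fatty acid genes and 1.44% of all genes. The GC box GGGCGG, a site of SP1, was present for 14 of 15 (93.3%), 3 of 8 (37.5%) and 38.2%. The E-box CACGTG was present for 3 of 15 (20%), 1 of 8 (12.5%) and 8.09%. CCACG, the part of the ER stress response element that XBP1 and ATF6 contact, overlaps CACGTG by 4 bases where both occur as CCACGTG, and was present for 10 of 15 (66.7%), 4 of 8 (50%) and 35.5%. The whole element, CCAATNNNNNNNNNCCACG, which contains CCAAT and CCACG, was found for 1 member, Acacb, and for 0.137% of all genes. These are matches of letters in short windows and describe neither binding nor a cause. Higher Idi1 and lower Msmo1 both carry CCAAT, as did 14 of the 15 sterol enzymes with a window, so this pair cannot relate its presence to a direction.

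Among the early enzymes of the sterol route, signals were higher at some steps, lower at others and nearly equal at the mevalonate kinases. Hmgcs1, the synthase that makes HMG-CoA, stood at 9007 in wild-type and 7053 in KO RNA. Its other 3 measured probe sets went from 7558 to 5657, from 4665 to 3699 and from 2081 to 1538. All 4 were lower, with log2 ratios between -0.44 and -0.33. The array annotates all 4 to the same transcript record, so they are not independent readings. Mvk and Pmvk, the kinases of consecutive mevalonate steps, stood at 291 and 281 and at 363 and 372 in the wild-type and KO pools. Their log2 ratios were -0.05 and 0.04, well inside the probe set spread. Another Mvk probe set went from 205 to 228, a log2 ratio of 0.16, so Mvk had no common sign. Mvd, the decarboxylase that makes isopentenyl diphosphate, went from 449 to 315, a log2 ratio of -0.51, while its other probe set gave 0.07, so its direction was not settled.

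Idi1, which interconverts the isoprenoid building blocks, was the highest sterol enzyme. It stood at 938 in wild-type and 1424 in KO RNA, 1.52-fold higher, and its other probe set went from 368 to 524, a log2 ratio of 0.51. Both probe sets were higher in the KO pool. Fdps, which joins the building blocks to farnesyl diphosphate, went from 1189 to 1412, a log2 ratio of 0.25. Sqle, the epoxidase that acts on squalene, went from 1229 to 1614, a log2 ratio of 0.39 on its 1 probe set. Fdft1, squalene synthase, which stands between these steps in the route, went the other way, from 1318 to 1037. Its log2 ratio was -0.35, and another probe set gave -0.43.

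The enzymes that turn lanosterol into cholesterol were lower or near the median of all genes. Msmo1, the sterol methyl oxidase, had the lowest ratio of the sterol enzymes. It stood at 4935 in wild-type and 2585 in KO RNA, 1.91-fold lower. A dim probe set of Msmo1, at 73.6 in the wild-type pool and below the floor in the other, gave only the bound of a log2 ratio of at most -0.11. Dhcr7, which reduces the last sterol intermediate to cholesterol, went from 963 to 509, 1.89-fold lower on its 1 probe set. Cyp51, the lanosterol demethylase, went from 941 to 582, or -0.69 on the log2 scale, and a dimmer probe set went from 245 to 125, a log2 ratio of -0.97. Tm7sf2, a sterol reductase of the step after CYP51, went from 1079.8 to 659, a log2 ratio of -0.71 on 1 probe set.

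The remaining enzymes of this stretch differed less or had probe sets that disagreed. Lss, which closes the sterol ring, went from 327 to 229, a log2 ratio of -0.51, but its dim probe set gave 0.08. Ebp, the sterol isomerase, went from 3604 to 2723, a log2 ratio of -0.40. Nsdhl, which acts with MSMO1 in demethylation, stood at 1101 and 1121, a log2 ratio of 0.03. Hsd17b7, the reductase of the same demethylating complex, had log2 ratios of -0.11, 0.24, -0.04 and -0.99 on 4 probe sets, the last one reading 139 and 70.0, close to the floor. Sc5d, the desaturase before DHCR7, stood at 4577 and 4374, a log2 ratio of -0.07, while dimmer probe sets gave -0.21 and -0.85. The demethylating enzymes therefore did not share 1 size of difference.

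A division of the route at squalene synthase was made after these values were seen. The 6 earlier enzymes had a median log2 ratio of -0.01, with 3 above and 3 below 0, and the 11 later ones a median of -0.40, with 2 above and 9 below 0. At 1.5-fold, 1 of the 6 was higher and 0 were lower, and 0 of the 11 were higher and 4 lower, beside 7.84% higher and 16.3% lower over all measured genes. Over all 17 enzymes, 5 log2 ratios (29.4%) were above 0, beside 39.8% of all measured genes. The median of the sterol list came to -0.09 when only probe sets without a suffix in their identifier were used, beside -0.11 for all genes in that setting. Such a suffix marks probes that can match more than 1 transcript. The remaining probe sets gave at most -0.11 for Msmo1, 0.08 for Lss and 0.24 for Hsd17b7.

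**Figure D2:**
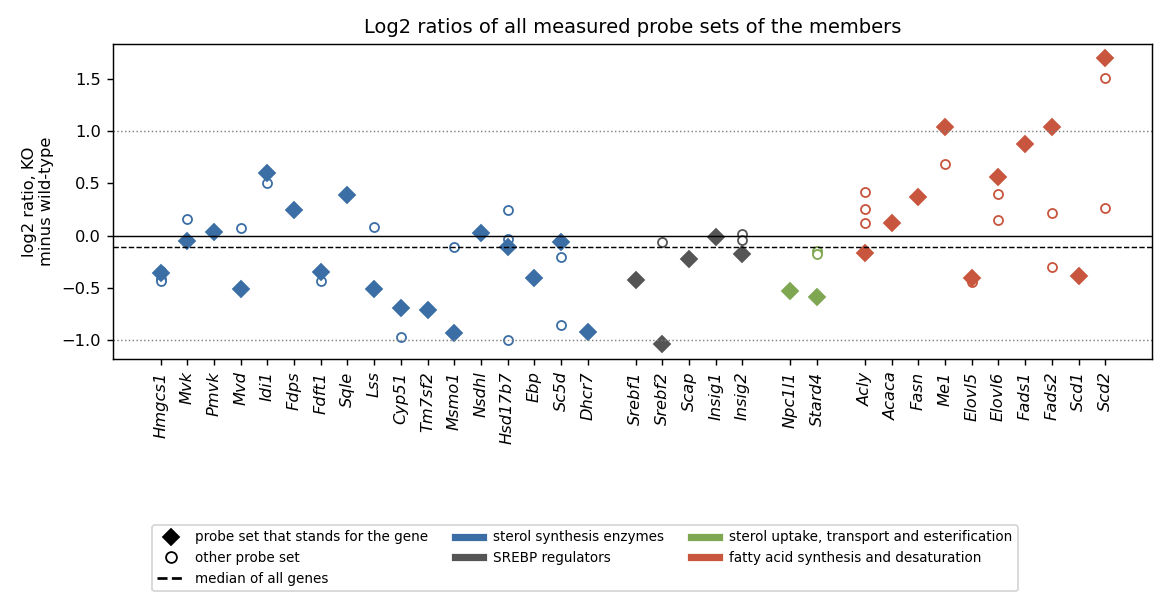
Log2 ratios of all 65 member probe sets that exceeded the floor on at least 1 array, by gene and group; diamonds mark the probe set that stands for a gene, circles the other probe sets, dotted lines 2-fold and the dashed line the median of all genes at -0.11. Probe sets of Hmgcs1, Idi1, Fdft1 and Elovl5 lie close together, while those of Fads2, Scd2, Hsd17b7 and Srebf2 lie far apart.

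The genes that control SREBP were lower or close to the median of all genes. Srebf2, which encodes SREBP2, stood at 753 in wild-type and 366 in KO RNA, 2.06-fold lower. Its other probe set stood at 325 and 312, a log2 ratio of -0.06, so the lower Srebf2 signal rests on 1 of 2 probe sets. For the values as the authors scaled them the first probe set gave -0.94, short of 2-fold. Srebf1, which encodes the SREBP1 forms from alternative promoters, went from 2142 to 1595, a log2 ratio of -0.43, on a probe set that does not name a form. Scap, the escort, stood at 1028 and 878, a log2 ratio of -0.23. Insig1, which is itself a target of SREBP and is often read as a gauge of its activity, stood at 1298 and 1288, a log2 ratio of -0.01. Insig2, the form that does not depend on SREBP, had log2 ratios of -0.17, 0.02 and -0.04 on 3 probe sets. The 3 components that sense sterol and hold SREBP back or escort it thus differed by less than the probe set spread.

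Sterol uptake and transport were represented by 2 measured genes, both lower. Npc1l1, the brush border carrier that takes up cholesterol from the gut lumen, stood at 29479 in wild-type and 20389 in KO RNA, a log2 ratio of -0.53, which became -0.20 after quantile normalization and -0.23 after loess. Stard4, which carries cholesterol between membranes and is itself sterol-regulated, went from 3446 to 2292, a log2 ratio of -0.59. The dimmer probe sets went from 2740.1 to 2476 and from 2375 to 2098, log2 ratios of -0.15 and -0.18. All 3 Stard4 probe sets were lower, and only the brightest passed 1.5-fold.

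In fatty acid synthesis, the genes that supply the precursors differed in direction and size. Me1, malic enzyme, which makes NADPH for fatty acid synthesis, stood at 1618 in wild-type and 3325 in KO RNA, 2.05-fold higher. Its other probe set went from 1633 to 2619, a log2 ratio of 0.68, so both were higher and 1 passed 2-fold. Acly, which makes cytosolic acetyl-CoA from citrate, stood at 1762 and 1572, a log2 ratio of -0.16. Other Acly probe sets went from 798 to 951 and from 398 to 434, log2 ratios of 0.25 and 0.12, and one at the floor in wild-type gave at least 0.41, so no common direction was seen. Acaca, the carboxylase that makes malonyl-CoA, stood at 275 and 299, a log2 ratio of 0.12. Both probe sets of Acacb, the carboxylase form linked to control of fatty acid oxidation, lay below the floor on both arrays. Fasn, fatty acid synthase, went from 289 to 373, a log2 ratio of 0.37 on 1 probe set.

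The desaturase gene Scd2 had the highest ratio of the members, and other desaturase and elongase genes lay on both sides of 0. Scd2, a stearoyl-CoA desaturase that makes monounsaturated fatty acids, stood at 456 in wild-type and 1478 in KO RNA, 3.24-fold higher. Another probe set of Scd2 went from 177 to 505, or 1.51 on the log2 scale, and a dim one from 89.5 to 107, a log2 ratio of 0.26. Scd2 ranked as number 36 from the top among the 12826 measured genes. Scd1, the related desaturase that dominates in liver and fat, was dim, at 158 and 121, a log2 ratio of -0.39. Scd1 had -0.06 with labelling spikes made equal and 0.40 with hybridisation spikes made equal, so the opposite direction of the paralogs was not kept in the latter, and hybridisation of one transcript to the other's probe sets was not tested.

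Fads1 and Fads2 encode the desaturases of the polyunsaturated fatty acid route. Fads1 went from 201 to 370.4, 1.84-fold higher on its 1 measured probe set. Fads2 went from 259 to 532, 2.05-fold higher, but its other probe sets went from 211 to 245 and from 318 to 258, log2 ratios of 0.21 and -0.30. The Fads2 difference thus rests on 1 of 3 probe sets, and over their median it was 0.21. Elovl6, the elongase of saturated and monounsaturated chains, went from 1925 to 2839, or 0.56 on the log2 scale, and another probe set from 1433 to 1587, a log2 ratio of 0.15. Elovl5, the elongase of polyunsaturated chains that works beside FADS1 and FADS2, went from 1449 to 1093, a log2 ratio of -0.41. Its other probe set gave -0.44, so Elovl5 was lower on both. Of its partner desaturases, Fads1 was higher on its 1 measured probe set, and the Fads2 probe sets went both ways.

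Counted over the list, 3 of 10 measured fatty acid genes passed 2-fold upwards and 0 downwards, and 7 of 10 had log2 ratios above 0, beside 2.25%, 5.08% and 39.8% of all measured genes. Of the 21 measured probe sets of these genes, 16 were above 0, beside 9372 of 22053 over all probe sets with 1 gene. Probe sets of the same gene are not independent readings, so this count adds little to the count by gene. The 3 genes below 0 were Acly, Elovl5 and Scd1. With each gene at the median of its probe sets, the list median was 0.29. Scd2 was then the 1 member at least 2-fold higher, 2.94% of all measured members beside 1.76% of all measured genes.

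**Figure D3:**
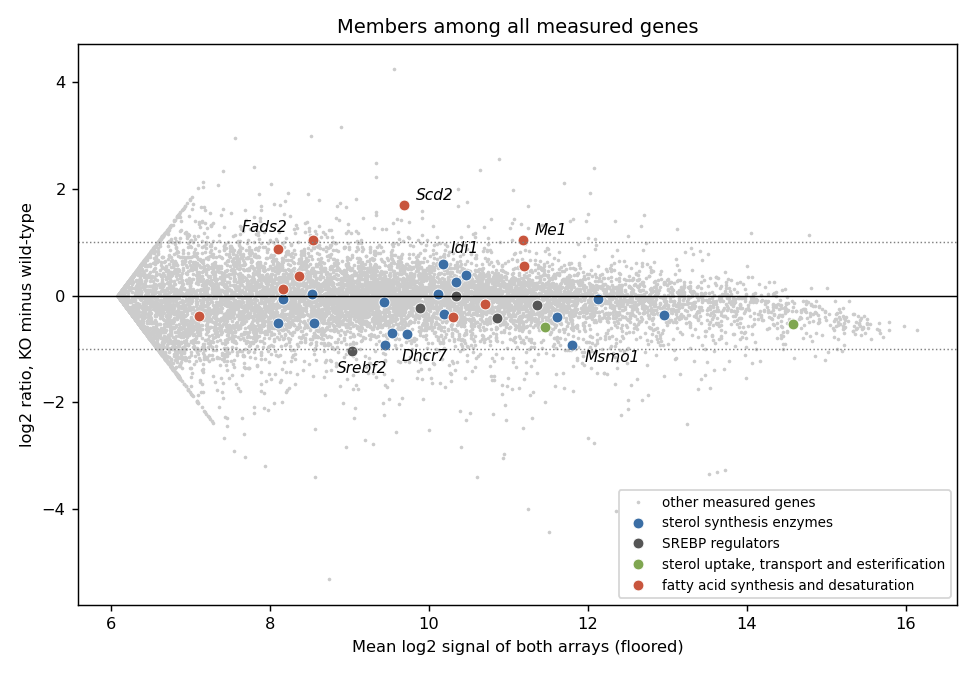
Log2 ratio against mean log2 signal for all 12826 measured genes (grey) with the members coloured by group; dotted lines mark 2-fold. Scd2 lies above the upper dotted line, Me1 and Fads2 sit at the upper dotted line, and Srebf2, Dhcr7 and Msmo1 sit near the lower one.

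The zero line depends on how the arrays are scaled. With labelling spikes made equal, the medians were -0.02 for sterol enzymes, 0.79 for fatty acid genes and 0.20 for all measured genes, and with hybridisation spikes made equal they were 0.44, 1.25 and 0.62. Scd2 had a log2 ratio of at least 1.51 in every setting. The brightest Srebf2 probe set, Msmo1 and Dhcr7 kept log2 ratios below 0 in every scaling tried. With hybridisation spikes made equal these were only -0.26, -0.15 and -0.14, inside the probe set spread. All other measured members then had log2 ratios above 0, Cyp51, Tm7sf2, Npc1l1, Stard4, Srebf1, Hmgcs1, Elovl5 and Scd1 among them. The fatty acid median lay above the median of all genes by between 0.39 and 0.63 in each setting. The sterol median minus that of all genes was smaller in size, between -0.28 and -0.11 in each setting but 1. With probe sets without a suffix it was 0.02. The sterol median itself was -0.20 after quantile normalization and -0.21 after loess.

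**Figure D4:**
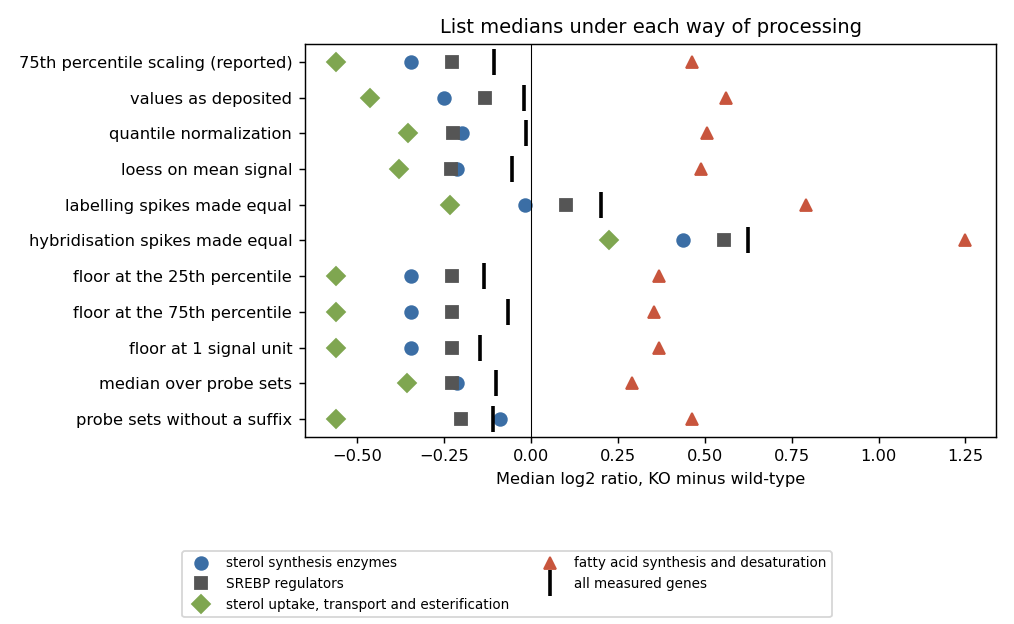
Median log2 ratio of each group of members (coloured symbols) and of all measured genes (black bars) under 11 ways of processing, 1 a row. The red triangles of the fatty acid genes lie to the right of the black bar in each row, by 0.39 to 0.63. Scalings by 1 constant per array move triangles and bars nearly together.

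Genes of neighbouring pathways, which are no members, were described in the same way. Over all 12826 measured genes, 39.8% of log2 ratios were above 0, and 2.25% of genes were at least 2-fold higher and 5.08% lower. Sterol efflux and LXR genes were mostly lower, with 5 of 6 measured log2 ratios below 0, 1 of 6 at least 2-fold lower and a median of -0.60. With hybridisation spikes made equal, 5 of these 6 were above 0. Abcg8, a subunit of the ABCG5-ABCG8 pump that returns sterols to the gut lumen, went from 3469 to 1367, 2.54-fold lower, and Abca1, which loads cholesterol onto lipoproteins, had a log2 ratio of 0.02. In the non-sterol isoprenoid branch, 6 of 8 genes were above 0 with a median of 0.19 and 0 passed 2-fold either way. Its ends were Pggt1b, a prenyltransferase subunit, at 0.41 and Fntb, the farnesyltransferase beta subunit, at -0.64. Genes for cutting and turnover of SREBP, 8 measured, had a median of -0.13 with 0 past 2-fold, from Erlin2, which takes part in ER-associated degradation, at -0.58 to Rnf145, an ER ubiquitin ligase, at 0.58. Other lipogenic genes, 16 measured, had a median of -0.01 with 0 past 2-fold. They ran from Tecr, a reductase of chain elongation, at -0.77 to Mid1ip1, an activator of acetyl-CoA carboxylase, at 0.49. Across the settings their median lay above that of all genes by between 0.04 and 0.39. The largest of these gaps came with probe sets without a suffix, over 11 genes.

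Markers of the mucosa's cell types also differed between the pools. All 8 enterocyte markers read were lower, with a median log2 ratio of -0.65 and summed signals of 421575 in wild-type and 263617 in KO RNA. Lct, lactase, had -1.16 and Apob, which builds chylomicrons, -0.44. All 3 crypt proliferation markers read were higher, with a median of 0.97 and sums of 1410 and 2683, from Top2a at 0.85 to Cdk1 at 0.99. The goblet cell markers had a median of -0.79 over 6 genes, with sums of 190594 and 86320, and Paneth cell markers -0.48 over 5, with sums of 66599 and 23840. The Paneth markers went both ways, from Itln1 at -4.00 and Lyz1 at -3.26 to Ang4 at 0.45 and Mmp7 at 0.50, and Lyz1 alone went from 41914 to 4373. Enteroendocrine markers had a median of -0.19 over 4, leukocyte markers -0.43 over 4 and smooth muscle markers -0.47 over 4. Npc1l1, several late sterol enzymes and most efflux genes were thus lower in the KO pool, as were the medians of all these marker lists except proliferation. Scd2, Me1, Fads1 and Fads2 were higher in the KO pool, as were the proliferation markers. With 2 arrays, any genes of like direction pair in this way. After quantile normalization the enterocyte median was -0.06 with 6 of 8 below 0, and with hybridisation spikes made equal 0.13 with 3 of 8 below 0, where the efflux list had 0.18. The 3 proliferation markers stayed above 0 under each scaling. The part of cell makeup in these differences was not tested. Adipoq, Lep and Retn, defining genes of fat, lay below the floor on both arrays, and of the fat markers read only Cidec, at 3539 and 3417, exceeded it. The 3 exocrine pancreas genes read lay below the floor on both arrays. Of 3 hepatocyte genes, Alb lay below the floor, and Ttr and Apoh were dim, at 123 and 70.9 and at 182 and 99.7.

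**Figure D5:**
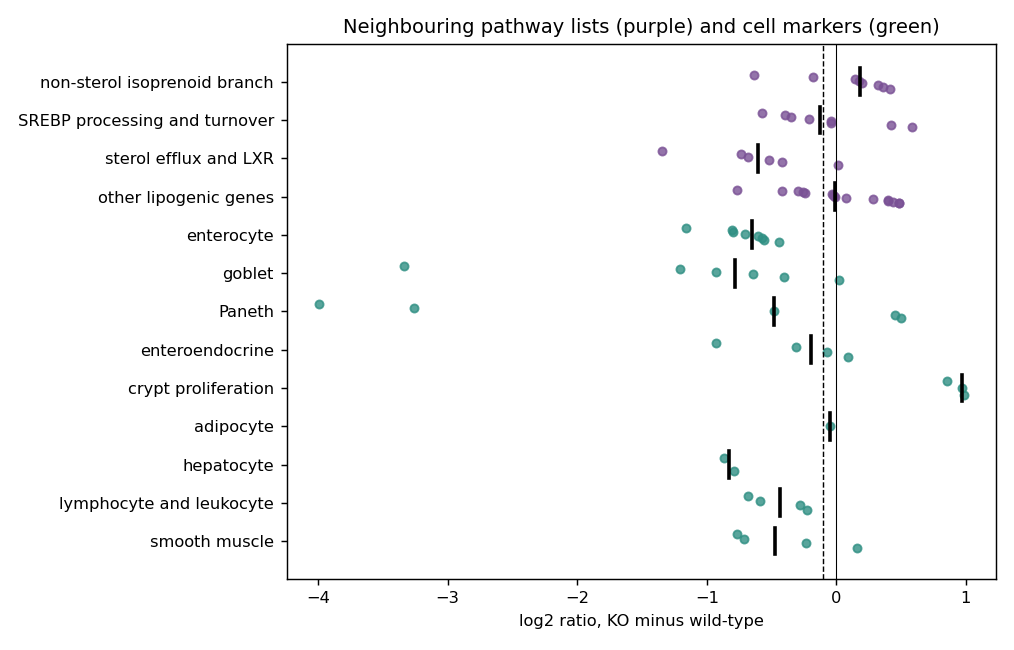
Log2 ratios of measured genes of neighbouring pathways (purple) and cell type markers (green), 1 point a gene, with black bars at list medians and the dashed line at the median of all genes, -0.11. Crypt proliferation markers lie furthest right with a median of 0.97, and enterocyte markers all lie left of 0 with a median of -0.65, where 6 of 8 did after quantile normalization and 3 of 8 with hybridisation spikes made equal.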

How the data were processed

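The authors deposited 1 intensity value per probe set and array, on a linear scale, for Affymetrix mouse genome arrays. These are MAS5 signals per the submitters' processing notes, and neither version nor detection calls are given in the sources used here. Both deposited columns had a trimmed mean of 500.0 (2% left out at each end). Of 45101 probe sets, 64 were controls, 34945 had 1 gene symbol in the platform annotation, 932 several and 9160 none here. Symbols were updated by Entrez number through the RefSeq table of GRCm38.p6, which held 99.4% of those numbers. Each array was scaled by its 75th percentile (factors 1.034 and 0.967), floored at the 50th percentile of both arrays, and log2 was taken. Recovery of log2 ratios under 75th percentile, quantile and loess scaling was tested on simulated data. Python 3.11.15, numpy 2.4.6, pandas 2.3.3 and statsmodels 0.14.6 (loess, span 0.3) were used. Members, lists and alternatives were chosen with earlier results of these data known. Named genes are all members, Xbp1, the ends of each pathway list and cell markers. Alternatives were 5 other scalings, 3 floors, 2 gene summaries and thresholds of 1.5-fold and 3-fold. Values for a gene family with paralogs are uncertain where probe sets are shared.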

Additional observations from a re-analysis of the deposited data

How the results depend on the processing

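A median is given here where it shifted by more than the SD of 0.30 between probe sets of a gene, and a count where it differed by over 1.5 times. With labelling spikes made equal, the median was -0.018 for sterol synthesis and 0.10 for SREBP regulators. It was -0.23 for sterol uptake and transport and 0.79 for fatty acid synthesis. In that setting 0 members were at least 2-fold lower, beside 2.52% of all measured genes. With hybridisation spikes made equal the medians were 0.44, 0.56, 0.22 and 1.25 in the same order. There 9 members (26.5%) were at least 2-fold higher, beside 20.6% of all measured genes, and 0 were lower, beside 0.982%. These scalings gave 711 and 2641 genes at least 2-fold higher over all measured genes, and 321 and 126 lower. The values as deposited gave 0 members at least 2-fold lower, beside 4.14% of all measured genes. The median over probe sets gave 1 member (2.94%) higher beside 1.76% of all measured genes, and 0 lower beside 4.16%. The difference between the sterol and fatty acid medians was then -0.50. Over all genes, a floor at the 25th percentile gave 1139 higher and 2531 lower, at the 75th percentile 85 and 219, and at 1 signal unit 1737 and 3333, in place of 288 and 652, since the floor sets how many dim genes can pass. At 1.5-fold, 5 members were higher and 6 lower, with 1005 and 2093 of all genes, and at 3-fold 1 and 0, with 55 and 135. Apart from the construction of the floors and thresholds, the cause of these shifts was not tested. The remaining 65 of the recomputed medians and counts stayed within these limits. No paired analysis was possible because each genotype has 1 array. Precision is lowest for the 7 measured members under 6 times the floor on both arrays, Fads1, Fasn, Acaca and Scd1 among them.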

Other observations

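Of the 79 member probe sets, 14 lay below the floor on both arrays and entered no ratio. Without the floor some would have had the largest ratios of their gene. A Scap probe set read 5.34 in wild-type and 34.6 in KO RNA, a log2 ratio of 2.69, while the bright Scap probe set gave -0.23. A Scd1 probe set read 3.76 and 19.4, a log2 ratio of 2.37, while the brighter one gave -0.39. An Acly probe set that crossed the floor on 1 array read 6.93 and 90.8, a log2 ratio of 3.71 without the floor and of at least 0.41 with it. An Fdft1 probe set read 40.7 and 7.31, a log2 ratio of -2.48, while the probe set used for Fdft1 gave -0.35. These are values of single dim probe sets, chosen after they were seen, and none was counted as a change.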
